A study of Mus musculus with 40 samples.

Results

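The genes described here make, cut, carry or clear the amyloid precursor protein, together with tau: App, Bace1, Adam10, Psen2, Aph1a, Ide, Mme, Apoe and Mapt. They were taken as every array probe whose gene name equals one of these 9 symbols, which gave 13 probes for the 9 genes among 36362 gene names on the array. Expression was measured on 1-colour Agilent mouse arrays in cerebral cortex and cerebellum, with 10 groups of 4 arrays and 40 arrays in all. In each region the groups were 2-month-old wild-type mice on a normal diet, 29-month-old wild-type mice on a normal diet, 29-month-old wild-type mice on an α-tocopherol-deficient diet, 29-month-old Ttpa-/- mice on the deficient diet, and 29-month-old Ttpa-/- mice on a supplemented diet. The background was C57Bl/6, the normal diet held 36 mg of α-tocopherol per kg and the supplemented diet 600 mg per kg. Ttpa codes for a transfer protein of α-tocopherol, and its loss lowers vitamin E in the body, so the comparisons ask how ageing and chronic vitamin E shortage bear on these transcripts. Ttpa-/- mice on the normal diet and young Ttpa-/- mice were not analysed here.

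Amyloid β is cut from the precursor App first by the β-secretase Bace1 and then by γ-secretase, a complex whose catalytic part is a presenilin such as Psen2 and which also holds Aph1. Adam10 is the main α-secretase, which cuts inside the amyloid β stretch and so precludes its release. Ide and Mme (neprilysin) are proteases that degrade amyloid β, Apoe is the main lipid carrier of the brain and is made largely by astrocytes and by activated microglia, and Mapt encodes tau, the microtubule-binding protein of neurofibrillary tangles.

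Levels are log2 intensities with the 75th percentile of each array set to 0, so they compare arrays for 1 probe and never probes with each other. The array's 75th percentile lay between 365 and 925 intensity units, and between 51.4% and 61.4% of probes were well above background. Excitatory cortical neuron markers (8 genes) averaged 2.13 to 2.59 on cortex arrays and −3.78 to −3.13 on cerebellum arrays, and the cerebellar markers (8 genes) averaged −1.67 to −0.86 and 4.72 to 5.49, so no array stood with the other region. The brighter Ttpa probe was well above background on 13 of 24 wild-type arrays, 12 of them from cerebellum, and on 1 of 16 Ttpa-/- arrays. The other Ttpa probe was above background on 1 array, a Ttpa-/- cerebellum on the deficient diet. Every array of 1 group lay on 1 slide of 8 arrays. Only ageing in cortex, the deficient diet in wild-type cerebellum, and deficient against supplemented diet in Ttpa-/- cerebellum compared groups on the same slide. In all other comparisons, cortex against cerebellum included, slide and condition cannot be told apart. The tissue is bulk, so fewer cells of a type and less RNA per cell cannot be told apart. The labels do not say whether same-numbered cortex and cerebellum samples came from 1 mouse, and p-values measure the spread between these samples.

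The brightest probe of a gene stands for it. App, Ide, Bace1, Adam10, Psen2 and Apoe each had 1 probe. A probe entered the test where 1 or more of the compared groups had it well above background on each of its 4 arrays, and a gene is said to have risen or fallen where its limma p, adjusted by Benjamini-Hochberg over all tested probes, was under 0.05. The 2 probes shown next lie in coding sequence: the only Apoe probe, and the second brightest Mapt probe, whose values differ from those of the brightest. The Apoe probe (chr7:20281732-20281791, minus strand, mm9), spotted 10 times, ends in the last codons before the stop. The Mapt probe (chr11:104189430-104189489, plus strand, mm9) reads the last part of the tau coding sequence, and the brightest Mapt probe starts just after it at chr11:104189496-104189555.
Apoe: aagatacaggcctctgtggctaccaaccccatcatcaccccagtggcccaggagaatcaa
Mapt: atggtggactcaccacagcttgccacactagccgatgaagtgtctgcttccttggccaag

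The largest differences in this group of genes lay between the 2 regions. Aph1a, Psen2 and Adam10 were higher in cerebellum, and App, Bace1 and Mme were higher in cortex. Mme is left out of the counts that follow, because it was well above background on no cerebellum array and could enter the test only through cortex. In young wild-type mice the other 8 genes passed, 4 higher in each region, where 62.5% of all tested probes passed. In the aged groups 5 of these 8 genes passed in wild type on the normal diet (background 56.4%), and 6 of 8 in wild type on the deficient diet (66.9%), in Ttpa-/- on the deficient diet (65.7%) and in Ttpa-/- on the supplemented diet (60.2%). With so many probes differing between the regions, these counts are no result about the 8 genes as a set.

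Among the secretases, Aph1a had the largest region difference. On the young cortex arrays it read 1.07, 0.87, 0.92 and 1.45, and on the young cerebellum arrays 2.13, 2.20, 2.08 and 2.32. The regions did not overlap there or in any other condition. Its log2 difference, cortex minus cerebellum, was −1.11 in young wild type, −0.91 in aged wild type on the normal diet, −1.17 on the deficient diet, −1.45 in Ttpa-/- on the deficient diet and −1.05 in Ttpa-/- on the supplemented diet, with an SE of 0.11 in each. The other Aph1a probe, dimmer but well above background on all 40 arrays and annotated to another transcript, did not show this: its region differences ran from −0.26 to 0.11 with an SE of 0.20, and it passed in none of the 19 comparisons. All Aph1a calls given here are those of the brighter probe. Psen2 was lower in cortex by 0.37 to 0.69 on the log2 scale and passed in all 5 conditions. Adam10 was lower in cortex by 0.34 to 0.56 in the 4 conditions where it passed, and its difference in aged wild type on the normal diet was −0.23 (adjusted p = 0.0596). Bace1 was higher in cortex in all 5 conditions, from 0.21 in young wild type (adjusted p = 0.00797) to 0.54 in aged wild type on the deficient diet (adjusted p = 4.09e-08). The young Bace1 call was lost under median scaling, quantile normalization, normexp correction and a fit of only the compared groups. It was also lost without replicate 1 of young cerebellum. Median scaling ended the Psen2 and Adam10 calls in wild type on the deficient diet, and the Adam10 call in Ttpa-/- on the supplemented diet.

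The precursor App passed as higher in cortex in all 5 conditions, with log2 differences from 0.19 (Ttpa-/- on the deficient diet) to 0.47 (wild type on the deficient diet). In Ttpa-/- on the deficient diet the regions overlapped, and the call was lost without replicate 4 of cortex or replicate 1 or 3 of cerebellum. Mapt was higher in cortex in 3 conditions by 0.22 to 0.24. Its coding-sequence probe, printed above, passed in all 5, with differences of 0.20 to 0.30 and an SE of 0.06. The third Mapt probe, further 3′, had differences of 0.02 to 0.17 and passed in none. Apoe was higher in cortex in young wild type (0.39), in wild type on the deficient diet (0.26) and in Ttpa-/- on the deficient diet (0.26), and read 0.04 in both other conditions. Quantile normalization turned the sign of App in young wild type and in Ttpa-/- on the deficient diet, of Mapt in young wild type and in Ttpa-/- on the supplemented diet, and of Apoe in Ttpa-/- on the supplemented diet, so these small region differences rest on the scaling.

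Of the clearing enzymes, Mme was a cortical transcript on these arrays. Its brighter probe was well above background on 4 of 4 young cortex arrays, 2 of 4 aged wild-type, 3 of 4 wild-type deficient, 4 of 4 Ttpa-/- deficient and 3 of 4 Ttpa-/- supplemented cortex arrays, and on none of the 20 cerebellum arrays. Set against a floor in cerebellum, the cortex mean was 2.51-fold higher in young wild type and 2.04-fold higher in Ttpa-/- on the deficient diet. The floor was, on each cerebellum array, the higher of the probe's own signal and the lowest signal among probes well above background. That lowest signal is not the detection limit of the Mme probe, so these folds are no strict bounds. Mme entered the test in these conditions through cortex alone, which fixed the direction, so the folds are a description. The second Mme probe was above background on 3 of 40 arrays and was not tested. Ide was lower in cortex by 0.48 in young wild type (adjusted p = 0.0492) and differed by −0.27 to −0.45 elsewhere without passing. The young call was lost in 5 of the 8 fits that left out 1 array.

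**Figure D1:**
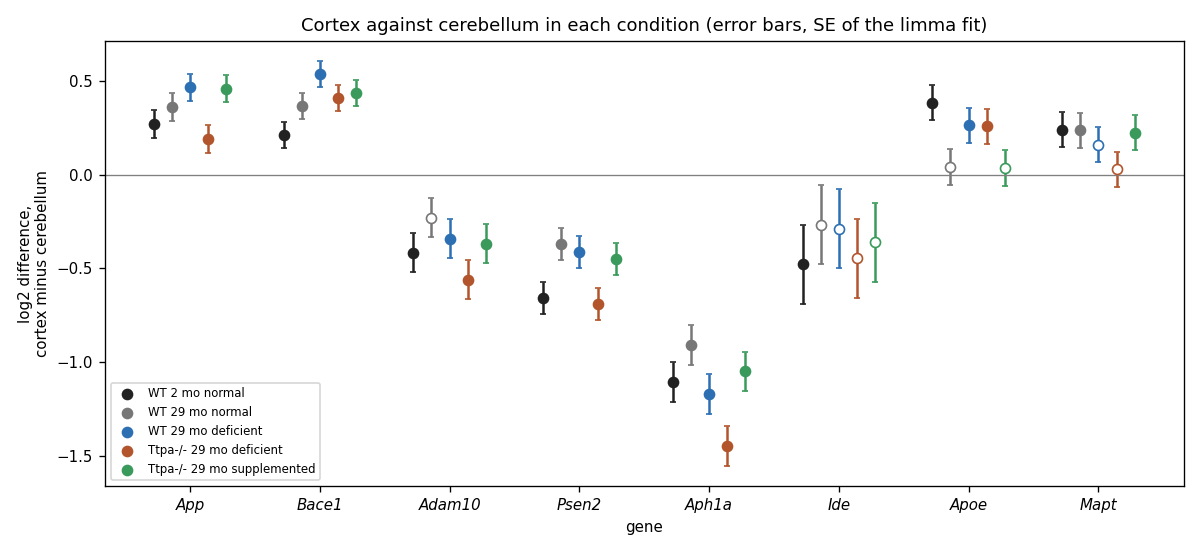
Difference between cortex and cerebellum (log2, cortex minus cerebellum; points, estimate; bars, SE of the limma fit; filled, passed; open, not passed) for 8 genes in 5 conditions, each from 4 arrays a region. Aph1a sits lowest, between −0.91 and −1.45, and Bace1 and App lie above 0 in every condition, though quantile normalization turned App below 0 in young wild type and Ttpa-/- deficient; Mme is left out because it was not well above background in cerebellum.

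With age none of the 9 genes passed in cortex, where 4.14% of all tested probes passed (1 gene had an unadjusted p under 0.05 by limma, and 1 by the methods' t-test). Cortical Apoe was 0.22 ± 0.09 (SE) higher on the log2 scale with age (adjusted p = 0.244), and passed under quantile normalization (0.26). In cerebellum 3 of 8 tested genes passed, against a background of 11.0%. Apoe rose with age by 0.56 ± 0.09 (SE, 1.48-fold, adjusted p = 7.24e-05), and Bace1 fell by 0.23 (adjusted p = 0.0265) and Psen2 by 0.27 (adjusted p = 0.0353). The young and aged cortex groups shared a slide, but the cerebellum groups did not, so slide and age cannot be told apart in cerebellum.

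Cerebellar Apoe read 7.07, 7.05, 7.05 and 6.95 on the young arrays and 7.49, 7.49, 7.52 and 7.87 on the aged arrays. The groups did not overlap, and the exact two-sided permutation p was 0.0286, the smallest that 4 against 4 allows. Replicate 4 of the aged group stood above the other 3, and without it the difference was 0.47, still past the threshold. In the same comparison 6 of 8 microglial markers rose, with a median log2 difference of 0.86. Their mean level lay between 0.24 and 0.76 on young and between 1.74 and 1.91 on aged cerebellum arrays. Astrocyte markers had a median of 0.09, with 1 of 8 higher and 1 lower, and 6 of the 8 differences lay above 0. On the same measure of mean level they lay between 3.49 and 3.73 on young and between 3.80 and 4.12 on aged cerebellum arrays. Beside the Bace1 and Psen2 falls, 3 of 8 cerebellar markers (median −0.37) and 2 of 8 neuronal markers (median −0.08) fell and none rose. Of 3 blood markers 2 rose (median 2.58), of 5 tested striatal markers 2 rose (median 0.13), and of 4 tested choroid plexus markers 1 fell (median −1.43). The part of these cell types in the Apoe, Bace1 and Psen2 differences was not tested. The change in Apoe with age differed by −0.34 ± 0.13 (SE) between cortex and cerebellum, which did not pass (adjusted p = 0.252). None of the 9 genes passed that interaction, where 1.83% of probes did (2 had an unadjusted p under 0.05 by limma).

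Cerebellar Bace1 read 2.93, 3.14, 3.15 and 3.23 in the young and 2.69, 2.96, 2.94 and 2.92 in the aged. The groups overlapped at the lowest young array, and the call was lost without any of young replicates 2, 3 and 4 or aged replicate 1. Cerebellar Psen2 read 2.21, 2.35, 2.25 and 2.17 in the young and 2.04, 2.15, 1.95 and 1.76 in the aged, with no overlap. Its call was lost without young replicate 1, 2 or 3 or aged replicate 3 or 4.

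In a list of 50 other genes of amyloid handling, chosen with earlier results known and 49 on the array, ageing raised 4 of 44 tested in cortex (9.09% of the list against 4.14% of all probes) and raised 6 and lowered 1 of 48 in cerebellum (14.6% against 11.0%). The microglial receptor Trem2 and its adaptor Tyrobp led both, at 0.85 and 0.78 in cortex and 2.67 and 2.49 in cerebellum, followed by the lipoprotein Apoc1 (0.76 and 1.01). The lysosomal protease Ctsd rose by 0.96 in cerebellum, and the mitochondrial peptidase Pitrm1 fell there by 0.31.

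The deficient diet alone left all 8 tested genes of wild-type cortex without a call, where 0.340% of probes passed (1 gene had an unadjusted p under 0.05 by limma, and 1 by the methods' t-test). In wild-type cerebellum 1 of 8 passed, against 4.58% of probes: Aph1a rose by 0.36 (adjusted p = 0.0438). It read 1.99, 2.04, 1.92 and 2.09 on the normal diet and 2.56, 2.30, 2.33 and 2.30 on the deficient diet. The groups did not overlap and shared a slide, and the call was lost in 6 of the 8 fits that left out 1 array. The second Aph1a probe differed by −0.20 ± 0.20 (SE).

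In Ttpa-/- mice on the deficient diet, compared with aged wild type on the normal diet, expression fell for 2 of 9 genes in cortex, Psen2 and Ide, where 19.0% of probes passed. Psen2 fell by 0.30 ± 0.09 (SE; adjusted p = 0.0128). It read 1.70, 1.69, 1.58 and 1.46 in wild type and 1.21, 1.28, 1.27 and 1.47 in Ttpa-/-, and the groups overlapped at 1 array each. The call was lost without Ttpa-/- replicate 1. In cerebellum Psen2 differed by 0.02, and 1 of 8 genes passed, where 13.2% of probes did: Aph1a rose by 0.31 (adjusted p = 0.0497), a call lost in 7 of the 8 fits that left out 1 array. The second Aph1a probe differed by −0.23 ± 0.20 (SE) in the same comparison.

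The brighter Aph1a probe differed in opposite directions in the 2 regions. In cortex it read 1.01, 1.17, 1.14 and 1.08 in aged wild type on the normal diet and 0.91, 0.76, 0.81 and 0.99 in Ttpa-/- on the deficient diet, a difference of −0.23 (adjusted p = 0.121). In cerebellum the Ttpa-/- arrays read 2.19, 2.43, 2.26 and 2.38, above all 4 wild-type arrays. The difference between the regions was −0.54 ± 0.15 (SE; adjusted p = 0.0255), the only 1 of 9 genes to pass this interaction, which 7.04% of probes passed. The second Aph1a probe gave −0.05 ± 0.28 (SE) there. In cortex alone its means lay in the same direction as those of the brighter probe, at −2.22 (SD 0.27) in aged wild type on the normal diet and −2.49 (SD 0.33) in Ttpa-/- on the deficient diet. Slide and group cannot be told apart in this interaction, and the call was lost in 5 of the 16 fits that left out 1 array.

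Where both genotypes were on the deficient diet, 2 of 9 genes fell in Ttpa-/- cortex, against 13.0% of probes: Aph1a by 0.33 (adjusted p = 0.0347) and Psen2 by 0.27 (adjusted p = 0.0365). Both calls were lost in 6 of 8 fits that left out 1 array. Where both diets were given to Ttpa-/- mice, 1 of 9 genes fell on the deficient diet in cortex, against 14.1% of probes: Aph1a by 0.38 (adjusted p = 0.0151), with supplemented arrays at 1.15, 1.18, 1.50 and 1.18, all above the deficient arrays. These comparisons share the Ttpa-/- deficient arrays. The second Aph1a probe passed in neither, but its means lay in the same direction in cortex. It averaged −2.49 (SD 0.33) in Ttpa-/- on the deficient diet, −2.20 (SD 0.20) in wild type on the deficient diet and −2.22 (SD 0.24) in Ttpa-/- on the supplemented diet. In cerebellum none of 8 tested genes passed for genotype on the deficient diet (background 12.8%; 1 unadjusted by limma), for diet in Ttpa-/- (0.767%; 0 unadjusted by limma and 1 by the methods' t-test), or for Ttpa-/- supplemented against wild type normal (14.7%; 3 unadjusted by limma and 3 by the methods' t-test). None of 8 passed for that last comparison in cortex either (0.212%; 1 unadjusted by limma and 1 by the methods' t-test).

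Among the 50 listed genes, Ttpa-/- on the deficient diet against wild type normal raised 6 and lowered 7 of 46 in cortex (28.3% of the list against 19.0% of all probes) and raised 4 and lowered 6 of 48 in cerebellum (20.8% against 13.2%). The γ-secretase subunit Ncstn (1.11) and the peptidase Ace (1.02) rose in cortex, and the Bace1 homologue Bace2 (−0.70) and Trem2 (−0.66) fell. In cerebellum the matrix metalloproteases Mmp9 (−1.18) and Mmp2 (−1.14), Tyrobp (−0.80) and the endothelin-converting enzyme Ece2 (−0.55) fell. Beside Psen2 and Ide in cortex, 3 of 8 astrocyte markers fell (median −0.22) and the 6 oligodendrocyte markers had a median of −0.51 with 1 lower. In the same comparison 2 of 8 neuronal markers fell (median −0.15) and 1 of 8 microglial markers fell (median −0.19). Of 8 excitatory cortical neuron markers 1 rose and none fell (median −0.09), and of 4 endothelial markers 1 rose and 1 fell (median 0.19). Striatal markers rose for 2 of 6 (median 0.60), and of 7 tested cerebellar markers 2 rose and 2 fell. Their part in these differences was not tested. The deficient diet in wild type raised 1 and lowered 2 of 48 listed genes in cerebellum (6.25% against 4.58% of all probes) and none of 46 in cortex. For genotype on the deficient diet the list lay below all probes, at 6.52% against 13.0% in cortex and 2.22% against 12.8% in cerebellum. It also lay below in Ttpa-/- supplemented cerebellum (12.5% against 14.7%), and for diet in Ttpa-/- cortex it was 15.2% against 14.1%. None passed for diet in Ttpa-/- cerebellum or in Ttpa-/- supplemented cortex.

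**Figure D2:**
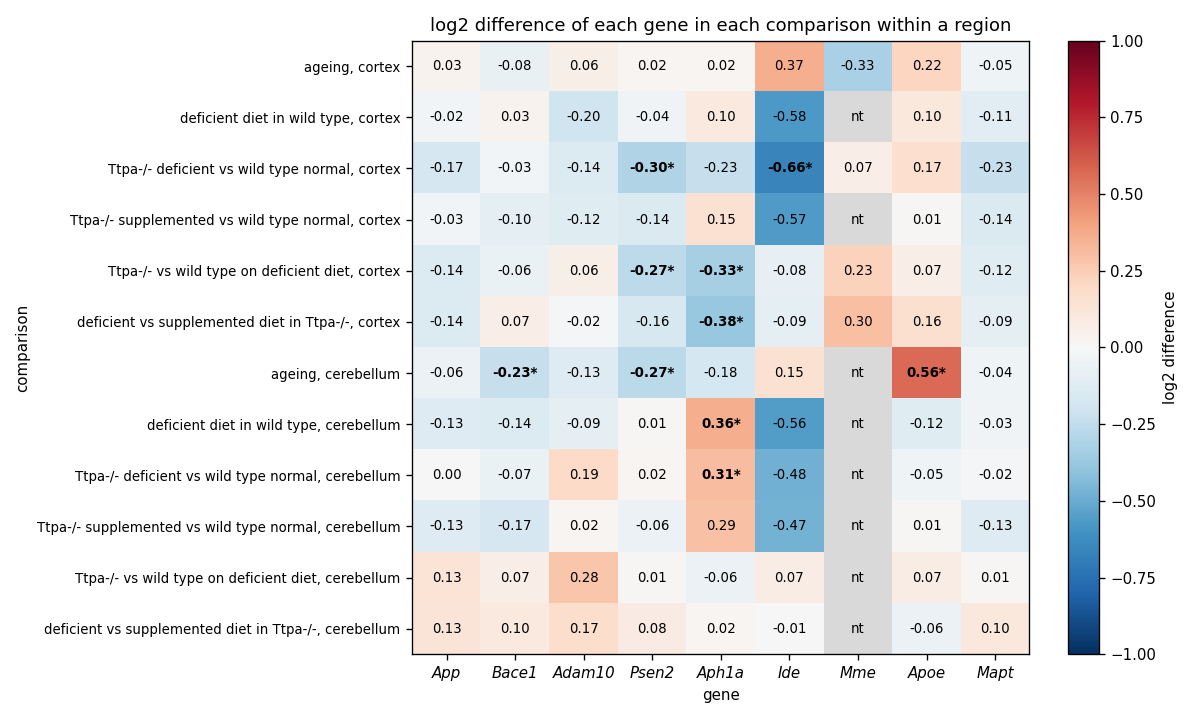
log2 difference of each gene (columns) in each of the 12 comparisons within a region (rows); asterisks and bold mark those that passed, and grey cells marked nt were not tested. Apoe with age in cerebellum (0.56) and Ide in Ttpa-/- deficient cortex (−0.66) are the largest marked values.

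Ide, the insulin-degrading enzyme, fell by 0.66 ± 0.21 (SE; adjusted p = 0.0266) in Ttpa-/- deficient cortex relative to aged wild type on the normal diet, but the wild-type arrays themselves split. In cortex the aged wild type on the normal diet read 1.63, 1.58, 0.91 and 0.60, and the young wild type 0.66, 0.64, 0.45 and 1.50. The Ttpa-/- arrays on the deficient diet read 0.53, 0.49, 0.50 and 0.55. High values thus lay on replicates 1 and 2 of the aged and replicate 4 of the young wild type.

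The cerebellum arrays carried the high values at the same replicate numbers. There the aged wild type on the normal diet read 1.88, 1.97, 0.97 and 0.96, and the young wild type 1.26, 1.1, 1.13 and 1.67. Wild type on the deficient diet read 1.0, 0.69, 0.89 and 0.97, and Ttpa-/- read 0.95, 0.96, 1.08 and 0.86 on the deficient and 0.98, 0.93, 0.99 and 0.98 on the supplemented diet. Across both regions these 6 arrays lay between 1.50 and 1.97 and the other 34 between 0.39 and 1.26. No array of the deficient or Ttpa-/- groups reached the 6.

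The gene most like Ide over the 40 arrays, after each region's mean was taken out, was Fgfbp3, a fibroblast growth factor binding protein gene, with a Pearson r of 0.82 among 16835 probes. Rell1 (0.66) and Rangrf (0.62) followed; this likeness is a description, and the points share region and array. Fgfbp3 lies near Ide on chromosome 19: its probe is at chr19:36992118-36992177 and that of Ide at chr19:37343642-37343701 (mm9). It read 0.79 to 0.83 on the 3 high cortex arrays and −0.19 to 0.58 on the other 17, and 1.24 to 1.42 on the 3 high cerebellum arrays and 0.46 to 0.91 on the other 17. Genes between and around them within 500 kb followed Ide less: r was 0.12 for Btaf1, 0.17 for Cpeb3, at most 0.35 for March5, 0.10 for Hhex and 0.14 for Exoc6. A duplicated segment that carries Ide and Fgfbp3 has been described in part of the C57BL/6J strain. Copy number was not measured here, and its part in these values was not tested.

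**Figure D3:**
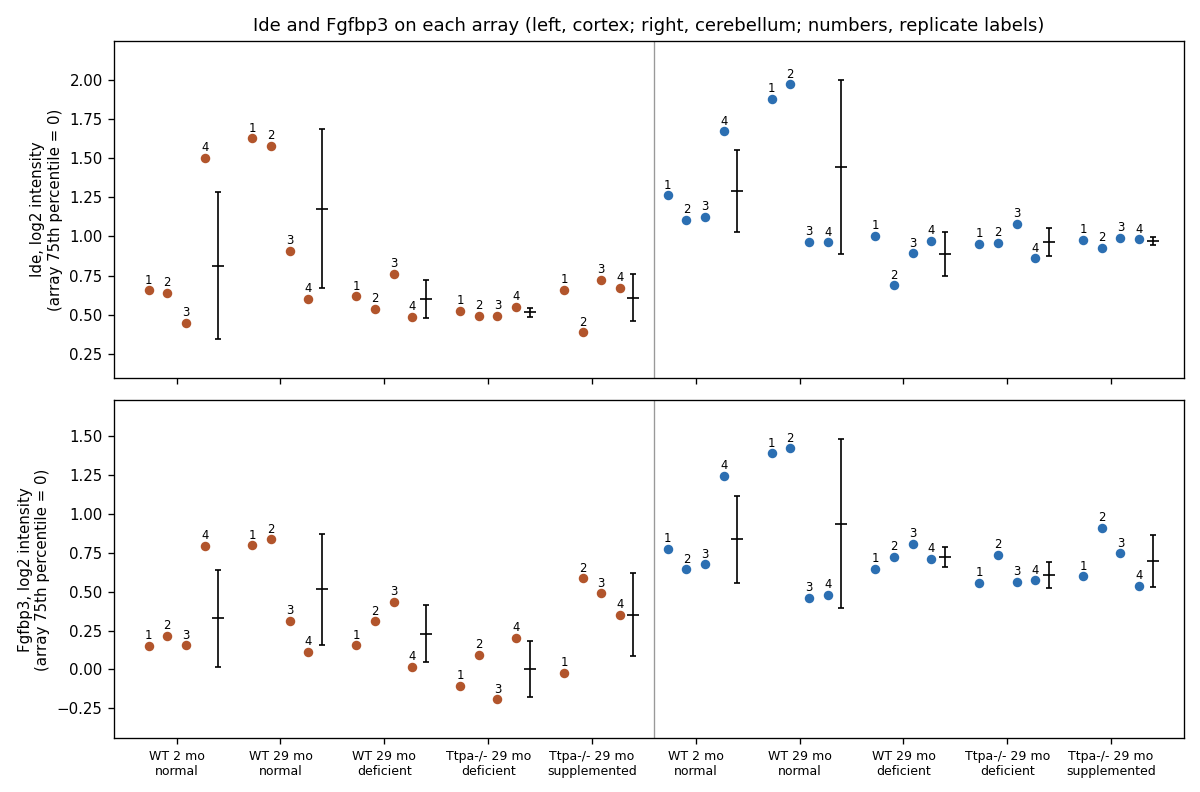
Ide (top) and Fgfbp3 (bottom) on each of the 40 arrays (log2 intensity, array 75th percentile set to 0; numbers, replicate labels; bars, mean ± SD, n = 4). Replicates 1 and 2 of aged wild type on the normal diet and replicate 4 of young wild type are high for both genes in both regions.

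Every comparison against aged wild type on the normal diet holds these arrays. Without the 6 arrays, a choice made after Ide was seen, so that these differences support no test, the Ide difference in Ttpa-/- deficient cortex was −0.24 in place of −0.66, in cerebellum 0.00 in place of −0.48, for the deficient diet in wild type −0.15 in place of −0.58 in cortex and −0.08 in place of −0.56 in cerebellum, and for Ttpa-/- supplemented −0.15 in place of −0.57 in cortex and 0.01 in place of −0.47 in cerebellum. The call in cortex was also lost without aged wild-type replicate 1 or 2 alone, and without Ttpa-/- replicate 1, 2 or 3. Against wild type on the same deficient diet, which holds none of the 6 arrays, Ide differed by −0.08 ± 0.21 (SE) in cortex and 0.07 ± 0.21 in cerebellum.

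**Figure D4:**
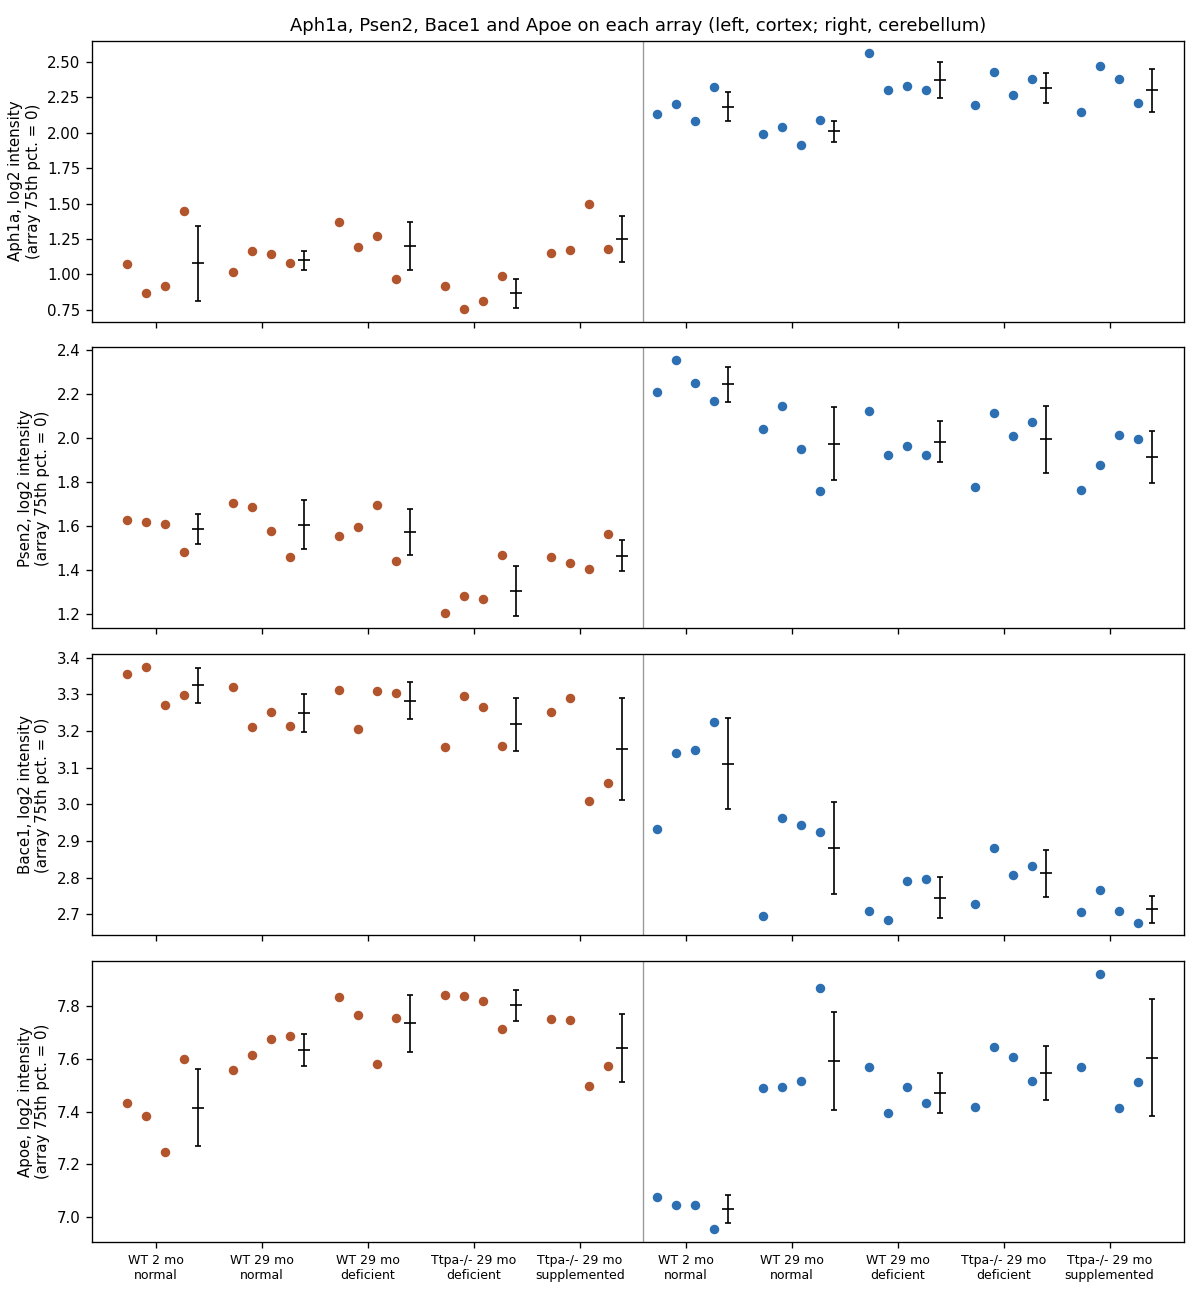
Aph1a, Psen2, Bace1 and Apoe on each of the 40 arrays (log2 intensity, array 75th percentile set to 0; left, cortex; right, cerebellum; bars, mean ± SD, n = 4). Aph1a and Psen2 lie higher in cerebellum, Bace1 higher in cortex, and young cerebellum holds the lowest Apoe values, 6.95 to 7.07.

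App, Adam10 and Mapt passed in none of the 12 comparisons within a region. App lay within −0.17 to 0.13 in all of them, and Adam10 came nearest in Ttpa-/- against wild type cerebellum on the deficient diet (0.28, adjusted p = 0.0714). Mapt read 6.21, 6.31, 6.30 and 6.20 in aged wild-type cortex on the normal diet and 5.95, 6.00, 5.95 and 6.18 in Ttpa-/- cortex on the deficient diet. The groups did not overlap, and the difference was −0.23 (adjusted p = 0.0778). The other Mapt probes differed by −0.08 ± 0.06 (SE; the coding-sequence probe) and −0.06 ± 0.14 in that comparison. Mme was tested in 4 cortex comparisons and passed in none. By the same measure of likeness as for Ide, the probes nearest to App were those of Fh1 (r = 0.85), Txn1 (0.84) and Rab6 (0.84), to Mme those of Cpne4 (0.82), Panx1 (0.81) and Sox11 (0.81), and to Apoe those of Man2b1 (0.88), Ftl1 (0.87) and Tmem176b (0.87). For Mme, r was 0.84, 0.84 and 0.86 within cerebellum, where Mme was not well above background on any array. Within cortex it was 0.68, 0.61 and 0.56, so the Mme likeness rests largely on signal near background.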

How the data were processed

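The authors scanned the arrays and deposited Agilent Feature Extraction intensity values per spot (version 10.7.3.1 in the file headers, 10.1.1.1 per the submitters' processing notes) and a table of log2 values. Those deposited log2 values equal the scaling used here minus each probe's mean, to a median absolute difference of 0.00085. Here processed intensity was averaged over unflagged spots, log2-transformed and centred on each array's 75th percentile, leaving 55589 probes. limma 3.58.1 (R 4.3.3) fitted 1 coefficient per group over 40 arrays; the fit was tested on simulated data. The 19 comparisons cover ageing, diet, genotype, region and 2 interactions, with Benjamini-Hochberg adjustment. Groups follow the sample labels. All probes of the 9 genes are reported; of the 50 listed pathway genes up to 4 with the largest passing difference are named (some items are not reported here), and likeness is Pearson r with the top 3 probes above background on all arrays. The members and lists were chosen with earlier results of these data known. Alternatives were other scalings, background correction, filters, weights, blocks and t-tests, and leaving out each array. The number of arrays limits the precision.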

Additional observations from a re-analysis of the deposited data

Results flagged for a closer look

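Aph1a differed between regions under the same contrast: Ttpa-/- mice fed the deficient diet, set against aged wild type fed the normal diet, gave a difference between cortex and cerebellum of −0.54 (SE 0.15, adjusted p = 0.0255 by limma). Of 90 sets of 4 arrays (9 genes in 10 groups), 10 held an array whose gap to the nearest of the others exceeded the 95% limit of Dixon's test as a share of the group's range. Chance flags about 1 in 20 such groups. The gap was 0.869 of the range for App in young wild-type cerebellum (replicate 1, lowest). For Bace1 it was 0.928 in wild-type deficient cortex (replicate 2, lowest) and 0.855 in aged wild-type normal cerebellum (replicate 1, lowest). It was 0.959 for Adam10 in Ttpa-/- deficient cortex (replicate 4, highest, at 2.83 against 2.43 to 2.44) and 0.867 for Psen2 in young wild-type cortex (replicate 4, lowest). For Aph1a it was 0.924 in Ttpa-/- supplemented cortex (replicate 3, highest) and 0.894 in wild-type deficient cerebellum (replicate 1, highest). For Apoe it was 0.836 in Ttpa-/- deficient cortex (replicate 4, lowest) and 0.929 in aged wild-type normal cerebellum (replicate 4, highest, at 7.87 against 7.49 to 7.52). For Mapt it was 0.888 in Ttpa-/- supplemented cortex (replicate 4, highest).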

How the results depend on the processing

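The small calls depended on the processing. The counts of genes that passed are given here where they moved by over 1.5 times; Mme is 1 of those counted between regions in the young and in Ttpa-/- deficient. Median scaling gave 0 in Ttpa-/- deficient against wild type normal in both regions, its interaction, genotype on the deficient diet and diet in Ttpa-/- in cortex, and ageing and the deficient diet in cerebellum, and 5 between regions in the young. The SE of Apoe was 0.16 under it and 0.09 otherwise. Quantile normalization gave 1 for ageing in cortex (Apoe), 1 for Ttpa-/- supplemented cerebellum and 5 between regions in the young. It turned the region difference of App to −0.010 in the young and −0.0035 in Ttpa-/- deficient, of Mapt to −0.041 in the young and −0.045 in Ttpa-/- supplemented, and of Apoe to −0.18 in Ttpa-/- supplemented. Normexp correction gave 0 for genotype on the deficient diet in cortex and 1 for Ttpa-/- supplemented cerebellum. No filter gave 0 for genotype in cortex, and for the deficient diet and Ttpa-/- deficient in cerebellum, and 1 for Ttpa-/- supplemented cerebellum. Array weights gave 1 for the diet in wild-type cortex, 6 for Ttpa-/- deficient cortex, 2 for diet in Ttpa-/- cortex, 3 for Ttpa-/- supplemented cerebellum and 3 for the interaction. Fitting only the compared groups, and the methods' t-test after adjustment, each gave 1 for ageing in cerebellum and 0 for the other 5 comparisons within a region that had calls. That t-test unadjusted gave 1 for ageing, diet in wild type and Ttpa-/- supplemented in cortex and for diet in Ttpa-/- cerebellum, 5 for Ttpa-/- deficient cortex, 2 for diet in wild-type cerebellum and 3 for Ttpa-/- supplemented cerebellum. A fold over 1.5 as well left 1 (Ide) in Ttpa-/- deficient cortex, 0 in the other comparisons within a region and in the interactions, and 3, 1, 1, 3 and 1 between regions. Averaging a gene's probes gave 1 for genotype in cortex and 0 for the diet and Ttpa-/- deficient in cerebellum and the interaction. The authors' log2 values moved no count. They could hardly do so, because they equal the scaling used here minus each probe's mean. Slide as a block, where it could be fitted, moved none either. That fit gives each group its own level, as the main fit does, so it could not move a count and is no check on slide.

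The replicate block took the replicate number as a fixed effect within a region, where each group has a different mouse under that number. Between regions it instead treated same-numbered arrays of a condition as 1 mouse, with a correlation of 0.12. With the replicate block the count was 0 for genotype and for diet in Ttpa-/- in cortex, 1 for ageing in cerebellum, and 0 for the deficient diet and Ttpa-/- deficient in cerebellum. No other count moved by over 1.5 times under this block. The calls it ended were Ide in Ttpa-/- deficient cortex, Psen2 and Aph1a for genotype and Aph1a for diet in cortex, Bace1 and Psen2 with age in cerebellum, and Aph1a in both cerebellar comparisons, while Mapt passed in Ttpa-/- deficient cortex, Adam10 between regions in wild type normal and Ide between regions in Ttpa-/- deficient. Same-numbered cortex and cerebellum arrays correlated from −0.16 to 0.63 in their deviations, over 0.1 in 13 of 20 pairs, and different numbers in 11 of 60. The median was 0.18 for same and −0.06 for different numbers, and high Ide values fell on the same numbers in both regions. Because not every same-numbered pair was over 0.1, the numbers were not taken as pairs, which does not settle whether they were. The region comparisons and interactions of the main fit thus treat the arrays as independent.

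Leaving out 1 array at a time gave 0 to 4 for Ttpa-/- deficient cortex, 0 to 3 for its interaction, 0 to 2 for genotype in cortex, 0 to 1 for diet in Ttpa-/- cortex, 1 to 3 for ageing in cerebellum, and 0 to 1 for the diet, Ttpa-/- deficient, Ttpa-/- supplemented and genotype in cerebellum. Without the 6 arrays high for Ide, chosen after seeing the data, fewer arrays were fitted and the count was 0 for Ttpa-/- deficient in both regions, its interaction and the diet in wild-type cerebellum. Aph1a stayed at −0.56 in the interaction, 0.31 in Ttpa-/- deficient cerebellum and 0.37 for the diet in wild-type cerebellum. Apoe with age in cerebellum passed in 10 of 12 alternatives and all 8 fits without 1 array. Arrays near background limit Mme most.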
